A study of Mus musculus with 45 samples.

Results

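Epididymal fat of C57Bl/6 (B6) mice was compared with that of 129S6/SvEvTac (129S6) mice, all on a high-fat diet. The comparison holds 7 of the 45 arrays of the study, 4 of B6 and 3 of 129S6, chosen by their labels for tissue, diet and strain. The study also measured fat on a low-fat diet (4 B6 arrays and 3 129S6 arrays) and liver and skeletal muscle on both diets. All mice were 6 months old, and no genetic modification is labelled in either strain. Each array carried cRNA from 25 µg of RNA pooled from 2 to 3 mice, so the spread between arrays is a spread between pools, and whether any pools shared mice is not stated. The composition of only 1 of the 2 diets is described (carbohydrate 57%, protein 22% and fat 21% of calories), without saying which. Levels are log2 units made with RMA, and 1 unit is a doubling of signal. Values of single arrays are given in the order of replicates 2, 6, 7 and 8 for B6 and 12, 13 and 14 for 129S6. Strain differences are B6 minus 129S6 on the log2 scale, given ± SE. In fat, the SE and p of a gene rest on a spread shared by all 14 fat arrays of both diets, not on the 7 high-fat arrays alone. Their p values come from limma, were adjusted over all 8251 genes, and made a gene called when under 0.05.

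The epididymal pad is a white fat depot of male mice that lies against the epididymis and testis. Its adipocytes store triglyceride, release it by lipolysis and secrete leptin and adiponectin, and in obesity the pad takes up macrophages, which gather around dying adipocytes. B6 mice are widely used because they become obese and insulin resistant on fat-rich food, and 129S6 mice are known as more resistant. Whether fat of the strains differs in expression under the same high-fat feeding is the question this comparison addresses.

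On the high-fat diet, B6 fat had more RNA for Ccl8, a chemokine that draws monocytes, for Lbp, which carries bacterial lipopolysaccharide to its receptor, for the lysosomal protease Ctsk, for Mgp, a matrix protein that limits calcification, and for the noncoding RNAs Gas5 and Snhg6. B6 fat had less RNA for Ucp1, the uncoupling protein of thermogenic adipocytes, for Hal, the first enzyme of histidine breakdown, for Gdpd3, a lysophospholipase D, and for the interferon-induced genes Ifi202b and Gbp2b. Differences of called genes ran from 0.59 to 3.28 log2 units among those higher in B6 and from -0.98 to -3.78 among those lower. The adipocyte products Lep and Adipoq, the lipogenic genes Fasn and Scd1 and the glucose transporter Slc2a4 were not called.

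Of 8251 genes, 36 were called (0.436%), 25 higher (0.303%) and 11 lower in B6 (0.133%), and in each of the 36 the 4 B6 arrays did not overlap the 3 129S6 arrays. A fit of the high-fat groups alone, without the low-fat arrays, called 9 of these 36 and no other gene (0.109%), 3 higher (0.0364%) and 6 lower in B6 (0.0727%). Over all genes the groups did not overlap in 421 (5.1%), with B6 above 129S6 in 3.03%, and 709 genes had an unadjusted p under 0.05.

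The arrays were of uneven quality. The 3' minus 5' signal of the Gapdh control probe sets, which is high where RNA is broken or cRNA is short, was 0.03, 0.41, 6.03 and 2.36 in B6 and 5.81, 5.93 and 0.37 in 129S6, against -0.06 to 0.24 in the 7 low-fat fat arrays. The actin control gave 0.49, 0.93, 3.88 and 1.31 in B6 and 2.39, 2.94 and 0.83 in 129S6. The median correlation with the other fat arrays, across genes, was 0.874 for B6 replicate 7, 0.953 and 0.916 for 129S6 replicates 12 and 13, and 0.966 to 0.980 for the other 11 arrays. The Gapdh signal averaged 2.21 ± 2.75 in B6 and 4.04 ± 3.18 in 129S6 (SD, n = 4 and 3), a difference for which an exact two-sided permutation test gave p = 0.571 (0.743 adjusted over 4 quality measures), where 0.0571 is the smallest p that 4 against 3 arrays allow. Both groups thus held arrays of high and of low signal.

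**Figure D1:**
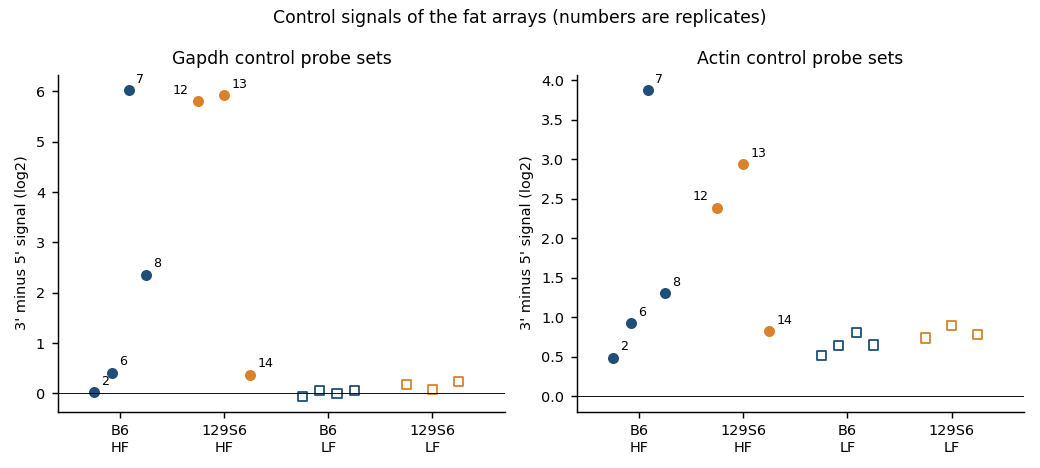
Difference between the 3' and the 5' control probe sets of Gapdh (left) and actin (right) on each fat array, in log2 units, with B6 blue, 129S6 orange, high-fat filled and low-fat open. High-fat arrays are marked by replicate; B6 replicate 7 (6.03) and 129S6 replicates 12 and 13 (5.81 and 5.93) stand above the rest in Gapdh signal.

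The number of calls depended on these arrays. A fit with the Gapdh signal as a covariate gave 161 calls (1.95%), of which 119 were higher (1.44%) and 42 lower in B6 (0.509%). Without B6 replicate 7 there were 897 (10.9%), 397 higher (4.81%) and 500 lower in B6 (6.06%). Without the 3 arrays whose Gapdh signal was above 3 there were 128 (1.55%), from a fit that leaves a single 129S6 high-fat array and takes its spread from the other groups. All 36 genes stayed called in the same direction with the covariate and without B6 replicate 7, and 30 without the 3 arrays. Array numbers in the labels fall into 2 runs, of which the first holds all B6 fat arrays and 129S6 low-fat replicate 9, and the second every other 129S6 fat array. With the run as a block, which only the low-fat 129S6 arrays link to the strain, 4 genes were called, all lower in B6 (0.0485%). Of these, 3 were among the 36 (Gdpd3, Hal and Ifi202b). Run and strain cannot be told apart within the high-fat fat arrays.

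The genes lower in B6 began with Gdpd3 on chromosome 7, whose product splits lysophospholipids into lysophosphatidic acid. Its level was 6.31, 6.33, 6.70 and 6.28 in B6, against 10.11, 10.86 and 9.61 in 129S6, a difference of -3.78 ± 0.24 (adjusted p = 2.51e-06). Every 129S6 array was far above every B6 array, and leaving out any of the 14 fat arrays kept the call. Hal, histidine ammonia-lyase on chromosome 10, had 5.02, 5.08, 5.43 and 5.23 in B6 and 8.61, 8.19 and 7.89 in 129S6, or -3.04 ± 0.18 (adjusted p = 1.91e-06). The promoter of Hal is shown because the gene had the smallest adjusted p of the comparison.

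The RefSeq promoter window of Hal (GRCm38.p6, plus strand, chr10:93488518-93488817, from 250 bases before to 50 after the start site) holds the letters TATAAA on the opposite strand, in capitals as they read on the gene's strand, from 28 bases before the start.
Hal: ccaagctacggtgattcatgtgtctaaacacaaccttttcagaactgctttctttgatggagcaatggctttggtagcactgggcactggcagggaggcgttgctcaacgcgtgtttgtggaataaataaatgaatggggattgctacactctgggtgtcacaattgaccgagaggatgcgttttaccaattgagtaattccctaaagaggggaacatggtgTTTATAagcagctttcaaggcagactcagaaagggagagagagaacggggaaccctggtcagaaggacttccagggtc
TATAAA, the core of a TATA box, was found on either strand in 13.62% of the 32851 windows of the table and in windows of 3 of the 24 called genes that have one (Hal, Ccl8 and Ifi202b). The reference is of C57BL/6J, and the 129S6 sequence was not used here.

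Ucp1, on chromosome 8, lets protons leak across the inner mitochondrial membrane and marks brown and beige adipocytes. It had 5.15, 5.03, 4.83 and 4.88 in B6 and 7.98, 6.69 and 7.92 in 129S6, or -2.56 ± 0.35 (adjusted p = 0.0029). The B6 arrays lay close together, and the 129S6 arrays were all higher and more spread. Of the 11 measured genes of the brown and thermogenic list, Ucp1 alone was called, and the median difference of the list was -0.27, against -0.02 over all genes. Cidea, a lipid droplet protein abundant in brown fat, was looked up after its values were seen. It had 6.23, 5.81, 6.20 and 6.25 in B6 and 7.42, 6.73 and 8.49 in 129S6, a difference of -1.42 ± 0.30 that was not called (adjusted p = 0.0745). It was called once the Gapdh covariate was in the fit (-1.62, adjusted p = 0.0079). Without overlap of the groups, 3 of the 11 genes were lower and 1 was higher in B6, beside 171 and 250 of all 8251 genes. The higher one was Fabp3, not called, with 4.84, 4.70, 4.49 and 4.82 in B6 and 4.29, 4.00 and 4.27 in 129S6.

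Interferon-induced genes were called lower in B6, Ifi202b from the list and Gbp2b outside it. Ifi202b, a DNA-binding protein of the p200 family on chromosome 1, had 3.05, 2.82, 2.87 and 3.01 in B6, against 4.74, 4.91 and 4.97 in 129S6, or -1.93 ± 0.14 (adjusted p = 7.16e-06). These B6 levels lie near the lowest of the table, whose values begin at 2.26. Gbp2b, an interferon-induced GTPase on chromosome 3, had 4.65, 4.99, 4.68 and 5.31 in B6 and 7.32, 6.88 and 6.30 in 129S6, or -1.92 ± 0.24 (adjusted p = 0.0016). Among the 26 measured genes of the interferon list, Ifi202b was called lower and no gene higher, although 20 of the 26 had positive differences (median 0.26). Under the Gapdh covariate 3 were called higher (Ifi47, Irf8 and Rsad2) and Ifi202b lower. Over all 8251 genes that fit called 119 higher (1.44%) and 42 lower (0.509%).

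The promoters of Gbp2b and Ifi202b are shown because interferon acts through short elements close to the start site of its target genes. In Gbp2b (GRCm38.p6, plus strand, chr3:142594597-142594896) the capitals mark a match to an interferon-stimulated response element on the opposite strand from 137 bases before the start. In Ifi202b (minus strand, chr1:173982795-173983094) they mark TTCNNNGAA, a gamma-activated sequence, which reads the same on both strands and begins 148 bases before the start.
Gbp2b: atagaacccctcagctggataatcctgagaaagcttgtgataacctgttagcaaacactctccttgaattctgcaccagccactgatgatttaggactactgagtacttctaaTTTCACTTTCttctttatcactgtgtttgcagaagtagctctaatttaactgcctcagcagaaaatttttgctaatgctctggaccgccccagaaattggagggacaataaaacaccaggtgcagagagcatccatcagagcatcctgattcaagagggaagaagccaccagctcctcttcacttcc
Ifi202b: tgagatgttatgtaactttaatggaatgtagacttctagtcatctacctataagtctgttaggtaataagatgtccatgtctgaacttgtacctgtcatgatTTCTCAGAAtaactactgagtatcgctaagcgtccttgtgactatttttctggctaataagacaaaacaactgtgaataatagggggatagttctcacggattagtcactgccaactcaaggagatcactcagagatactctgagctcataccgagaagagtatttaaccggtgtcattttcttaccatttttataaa
The first motif was in 3.44% of all windows and, among the 24 called genes with a window, only in Gbp2b. The second was in 8.3% of all windows and in 4 of the 24 genes (Cd3d, Cdsn, Ifi202b and Igfals). A match is a description of letters and not a site shown to be bound.

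Bckdhb and Glo1 were also called lower in B6. Bckdhb, a subunit of the complex that breaks down branched-chain amino acids, had 7.02, 7.05, 8.56 and 7.56 in B6 and 9.47, 9.32 and 9.12 in 129S6, or -1.76 ± 0.29 (adjusted p = 0.0127). Replicate 7 was the highest B6 array, and without it the difference was -2.09. Glo1, which clears methylglyoxal, had 7.33, 7.65, 8.56 and 7.88 in B6 and 9.17, 9.21 and 8.95 in 129S6, or -1.26 ± 0.22 (adjusted p = 0.0169). A second probe set of Glo1 gave -0.997 ± 0.22 and was not called (adjusted p = 0.0868 over all probe sets).

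The other genes lower in B6 were of mixed function. Hbb-b2, a beta-globin gene of red cells, differed by -1.71 ± 0.25 (adjusted p = 0.0044), while none of the 5 measured genes of the erythrocyte list was called (median -0.29, all negative), and the mean level of that list was 6.84 to 7.36 in B6 and 7.48 to 7.52 in 129S6. Hbb-b2 was also called lower in B6 in fat on the low-fat diet (-2.11, adjusted p = 9.28e-04). The same held on the high-fat diet in liver (-1.20, adjusted p = 8.46e-04) and in muscle (-3.14, adjusted p = 5.17e-10). The part of blood in the difference of Hbb-b2 was not tested. Erdr1 differed by -2.27 ± 0.27 (adjusted p = 0.0012) at a probe set shared among sequences, and its other probe set by 0.08 ± 0.16. Ocel1 differed by -1.47 ± 0.13 (adjusted p = 9.16e-05) and Med1, a subunit of the Mediator complex, by -0.98 ± 0.18 (adjusted p = 0.0311).

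**Figure D2:**
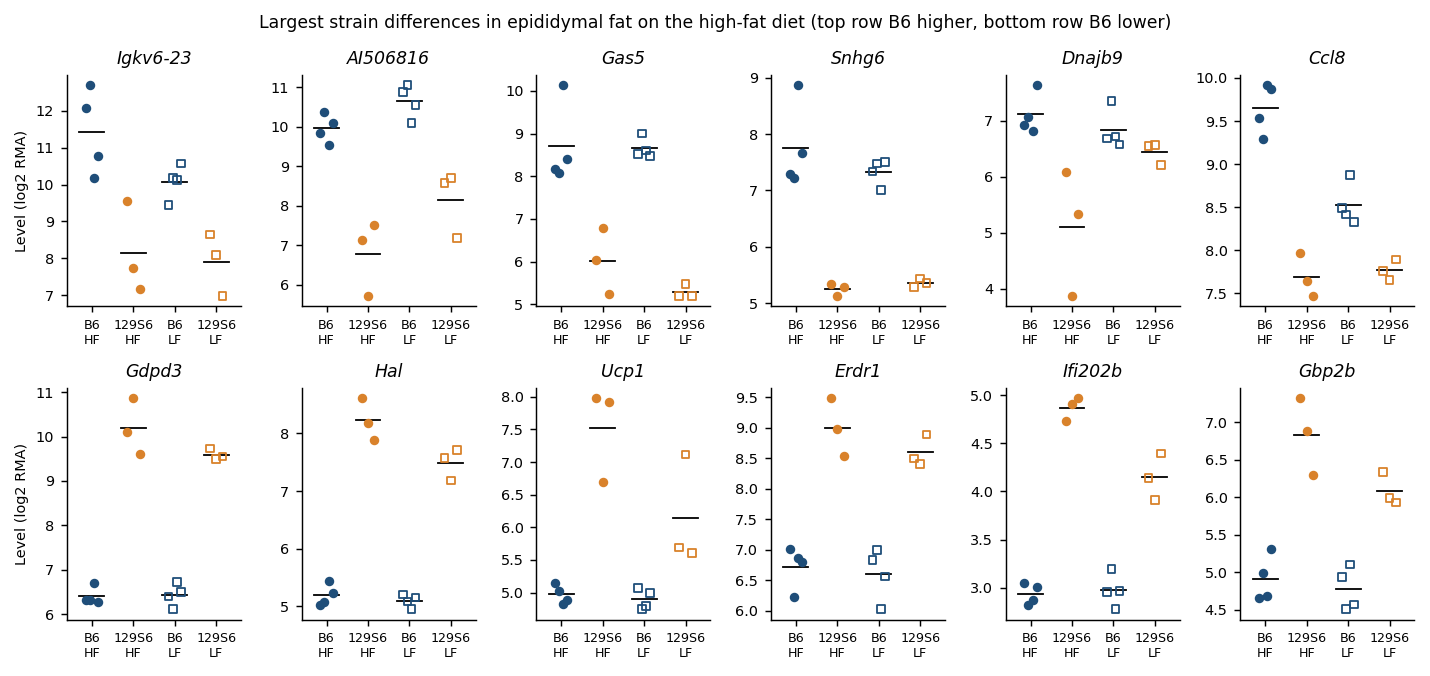
Level (log2 RMA) of the 6 genes with the largest positive (top) and the 6 with the largest negative strain differences on the high-fat diet, 1 point an array and a bar at the group mean, with B6 blue, 129S6 orange, high-fat filled and low-fat open. Ccl8 lay at 9.29 to 9.92 in high-fat B6 fat and at 7.47 to 7.97 in high-fat 129S6 fat, and Hal at 5.02 to 5.43 in B6 and 7.89 to 8.61 in 129S6.

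Among the genes higher in B6, Ccl8 on chromosome 11 was the only called member of the list of cytokines, chemokines and their receptors. It had 9.54, 9.29, 9.92 and 9.87 in B6 and 7.97, 7.64 and 7.47 in 129S6, or 1.96 ± 0.18 (adjusted p = 0.000118). The call held whichever fat array was left out. Of the 44 measured genes of the list, 31 had positive differences (median 0.15), against 3742 of all 8251 genes. In 8 of the 44 the B6 arrays were all above the 129S6 arrays, beside 250 of all 8251 genes (3.03%). Ccl2, which recruits monocytes through Ccr2, had 8.01, 7.63, 9.50 and 8.00 in B6 and 7.16, 7.60 and 6.77 in 129S6, or 1.10 ± 0.37, and was not called (adjusted p = 0.336). With the Gapdh covariate it was 1.47 and called (adjusted p = 0.0089), as was Cxcl9.

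The promoter window of Ccl8 (GRCm38.p6, plus strand, chr11:82114935-82115234) is shown as that of the most strongly called chemokine. The capitals mark TATAAA on the gene's own strand, beginning 32 bases before the start.
Ccl8: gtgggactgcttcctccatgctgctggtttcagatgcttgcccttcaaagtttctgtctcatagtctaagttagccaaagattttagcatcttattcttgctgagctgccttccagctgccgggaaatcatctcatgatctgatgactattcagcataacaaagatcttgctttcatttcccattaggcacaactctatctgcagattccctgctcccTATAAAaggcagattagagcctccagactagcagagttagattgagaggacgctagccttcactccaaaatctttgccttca
No match to that interferon-stimulated response element or to TTCNNNGAA was found in this window, which says only that these letters are not in it.

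Lbp, on chromosome 2, had 9.69, 9.57, 10.30 and 10.05 in B6 and 8.40, 8.49 and 8.21 in 129S6, or 1.54 ± 0.17 (adjusted p = 0.00066). Ctsk, cathepsin K, a protease of osteoclasts and activated macrophages that is also made by fat cells, had 8.45, 7.82, 7.45 and 8.80 in B6 and 6.45, 6.26 and 6.98 in 129S6, or 1.57 ± 0.27 (adjusted p = 0.0169). Ctsk was the only called gene of the 16 measured of the lipid-laden macrophage list (median 0.34, 11 positive). Lgals3, galectin 3, was looked up after its values were seen, with 9.44, 8.72, 9.97 and 9.61 in B6 and 8.06, 8.00 and 8.32 in 129S6. Its difference of 1.31 ± 0.28 was not called (adjusted p = 0.0778) and was called with the Gapdh covariate (1.41, adjusted p = 0.0235).

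None of the 26 measured macrophage markers was called, while their median difference was 0.60 and 22 were positive. Their mean level was 8.52, 8.27, 7.97 and 8.70 in B6, against 7.54, 7.97 and 7.91 in 129S6. Every B6 array lay above every 129S6 array, though B6 replicate 7 (7.973) and 129S6 replicate 13 (7.971) were nearly equal. With the Gapdh covariate 2 were called higher (Fcgr2b and Lgmn), beside 119 of all 8251 genes (1.44%). Without B6 replicate 7 there were 10, beside 397 of 8251 (4.81%). None was called lower in either fit. On the low-fat diet the median difference of the list was 0.76, with 25 of the 26 positive. There 3 were called higher, beside 33 of all 8251 genes. The defining marker Adgre1 (F4/80) had 9.23, 8.66, 10.18 and 9.22 in B6 and 8.74, 11.35 and 8.72 in 129S6, and its difference was -0.28 ± 0.54 (adjusted p = 0.921). Cd68, a lysosomal glycoprotein of macrophages, had 10.45, 9.85, 7.86 and 10.79 in B6 and 8.66, 7.42 and 9.47 in 129S6, or 1.23 ± 0.59 (adjusted p = 0.595). In both groups the arrays of high Gapdh signal had the lowest Cd68 level. In a pooled tissue, more cells of a type and more RNA per cell cannot be told apart.

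Genes of B cells and T cells were called singly. Igkv6-23, an immunoglobulin kappa variable segment measured by a probe set shared within its family, had 12.08, 12.70, 10.18 and 10.77 in B6 and 9.54, 7.75 and 7.18 in 129S6, or 3.28 ± 0.64 (adjusted p = 0.0447). The B6 arrays spanned over 2 units, and the call held in 2 of the 14 fits that left out 1 fat array. Of 13 B and plasma cell markers none was called (median 0.25). Ighm, the heavy chain of IgM, looked up after its values were seen, had 11.46, 12.31, 9.40 and 10.18 in B6 and 9.23, 8.49 and 8.17 in 129S6 (2.21 ± 0.53, adjusted p = 0.134). Cd3d, part of the T cell receptor complex, differed by 0.59 ± 0.11 (adjusted p = 0.0286) at levels of 3.16 to 3.98 over the 7 arrays, near the low end of the table, and was the only called gene of 18 T and NK cell markers (median 0.05).

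Mgp, Matn2, Cck and Igfals were called higher in B6. Mgp had 9.18, 8.70, 10.29 and 9.85 in B6 and 7.47, 7.34 and 8.15 in 129S6, or 1.85 ± 0.32 (adjusted p = 0.0169), and 1.10 without the 3 arrays of high Gapdh signal (adjusted p = 0.155). Matn2, a matrix adaptor protein, differed by 1.36 ± 0.25 (adjusted p = 0.0311), while its second probe set gave -0.22 ± 0.17. None of the 50 measured genes of the matrix list was called (median 0.23, 36 positive). With the Gapdh covariate 3 were called higher (Nid1, Nid2 and Col6a3) and Loxl1 lower. Over all 8251 genes that fit called 119 higher (1.44%) and 42 lower (0.509%). Cck, the gut and brain peptide cholecystokinin, had 6.37, 6.25, 6.53 and 6.74 in B6 and 4.78, 4.82 and 4.44 in 129S6, or 1.79 ± 0.29 (adjusted p = 0.0126). Igfals, which holds insulin-like growth factors in a circulating complex, had 8.97, 9.02, 8.43 and 9.02 in B6 and 7.72, 7.45 and 7.57 in 129S6, or 1.28 ± 0.18 (adjusted p = 0.0034).

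Metabolic and secretory pathway genes were called 1 at a time. Dhcr7, which makes the last step of cholesterol synthesis, had 6.62, 6.66, 5.60 and 6.42 in B6 and 4.84, 4.14 and 5.17 in 129S6, or 1.61 ± 0.27 (adjusted p = 0.0154). It was the only called gene among 17 of cholesterol synthesis and uptake (median 0.27, 13 positive). Dnajb9, an endoplasmic reticulum chaperone, had 6.93, 7.06, 6.82 and 7.64 in B6 and 6.08, 3.87 and 5.32 in 129S6, or 2.02 ± 0.40 (adjusted p = 0.0447). The 129S6 arrays spread over 2 units, the second probe set of Dnajb9 gave -0.16 ± 0.39, and the call held in 2 of 14 fits without 1 array. It was the only called gene of 23 of the list of ER stress and chaperones (median 0.32, 18 positive).

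Slc1a5, a neutral amino acid transporter, had 8.58, 8.25, 7.86 and 9.08 in B6 and 7.15, 6.10 and 7.01 in 129S6, or 1.69 ± 0.27 (adjusted p = 0.012). Stbd1, which tethers glycogen to membranes, had 6.13, 6.24, 6.73 and 6.17 in B6 and 4.87, 4.65 and 4.72 in 129S6, or 1.57 ± 0.16 (adjusted p = 0.000235). Scarb2, a lysosomal membrane protein, differed by 0.88 ± 0.15 (adjusted p = 0.0166). Arcn1, a coat protein of transport vesicles, differed by 1.57 ± 0.21 (adjusted p = 0.0028) at a probe set that other sequences share, while its other probe sets gave 0.21 ± 0.17 and -0.23 ± 0.28. Pla2g12a, a secreted phospholipase A2, differed by 1.68 ± 0.31 (adjusted p = 0.0311) at a shared probe set and by 0.03 ± 0.34 at another. AI506816 differed by 3.19 ± 0.44 (adjusted p = 0.0029) at its brighter probe set, with a mean of 9.09 over the fat arrays. At the dimmer probe set specific to it (mean 5.00) the difference was -0.10 ± 0.19, so the call rests on the brighter one. Stmn1, which destabilises microtubules, differed by 0.73 ± 0.14 (adjusted p = 0.035), and its second probe set by -0.13 ± 0.13.

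Gas5 and Snhg6, both on chromosome 1, are host genes of small nucleolar RNAs. Gas5 had 8.18, 8.08, 10.13 and 8.40 in B6 and 6.03, 6.78 and 5.23 in 129S6, or 2.68 ± 0.44 (adjusted p = 0.0138). Snhg6 had 7.29, 7.22, 8.87 and 7.66 in B6 and 5.34, 5.13 and 5.28 in 129S6, or 2.51 ± 0.31 (adjusted p = 0.0014). For both, replicate 7 was the highest B6 array, and without it the differences were 2.20 and 2.14. The SD of Gas5 was 0.97 in B6 and 0.78 in 129S6 on the high-fat diet, against 0.24 and 0.16 on the low-fat diet. Its SE above shares the spread of these tighter low-fat arrays. A probe set of Gas5 specific to it gave 0.28 and was not called. It was dim, with a mean of 4.25 over the fat arrays, against 7.38 for the probe set used. The remaining called genes, all higher in B6, were Cdsn (1.06), Gpr137b-ps (1.18), 6430706D22Rik (0.88), Ppm1m (0.84) and Pkig (0.71). Of the 14 fits that left out 1 fat array, the call held in 3 for Ppm1m and in 6 for Pkig. It held in all 14 for Cdsn, Gpr137b-ps and 6430706D22Rik.

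Genes of adipocyte identity and lipid storage were not called. Lep, leptin, had 12.88, 12.86, 13.55 and 13.19 in B6 and 13.36, 12.93 and 13.19 in 129S6, or -0.04 ± 0.19 (adjusted p = 0.976), and the groups overlapped. Adipoq, adiponectin, had 11.40, 11.38, 12.45 and 11.79 in B6 and 12.61, 12.85 and 12.17 in 129S6, or -0.79 ± 0.26 (adjusted p = 0.315). These levels are near the top of the table, whose highest value is 14.26. Without B6 replicate 7 the difference of Adipoq was -1.02 and called (adjusted p = 0.0097), as was Pparg, the master regulator of adipocyte formation (-1.11, adjusted p = 0.009). In the full fit Pparg had 6.71, 6.91, 8.35 and 7.52 in B6 and 8.37, 8.04 and 8.07 in 129S6, or -0.79 ± 0.32 (adjusted p = 0.471). The mean level of the 12 measured adipocyte markers was 9.48 to 9.81 in B6 and 9.42 to 10.17 in 129S6.

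Retn, resistin, had 9.87, 10.05, 11.32 and 10.44 in B6 and 10.20, 9.43 and 8.91 in 129S6, or 0.90 ± 0.33 (adjusted p = 0.404). It was called with the Gapdh covariate (1.27, adjusted p = 0.0027) and without the 3 arrays of high Gapdh signal (1.20, adjusted p = 0.0273). Fasn and Scd1, of fatty acid synthesis, differed by -0.32 ± 0.28 and -0.26 ± 0.19, Lpl, which frees fatty acids from lipoproteins, by -0.33 ± 0.20, and Slc2a4, the insulin-dependent glucose transporter, by 0.12 ± 0.35, none called. Mest, whose level follows the expansion of fat mass, and Nnat, an imprinted gene like it, differed by -0.52 ± 0.41 and -1.19 ± 0.53, and Nnat was called with the Gapdh covariate (-1.70, adjusted p = 0.0324). Nnt, which carries a deletion in the C57BL/6J substrain, had 7.19, 6.97, 8.28 and 7.36 in B6 and 7.21, 7.56 and 6.43 in 129S6, or 0.38 ± 0.29 (adjusted p = 0.78).

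No gene was called among 17 of fatty acid synthesis (median -0.17), 11 of triglyceride synthesis (-0.21), 18 of lipolysis (-0.10), 20 of mitochondrial fatty acid oxidation (-0.37) and 63 subunits of oxidative phosphorylation (-0.22), against a median of -0.02 over all genes. Positive differences were found in 8 of the 63 subunits and in 2 of the 20 oxidation genes, against 3742 of all 8251 genes. Without B6 replicate 7, 20 of the subunits and 6 of the oxidation genes were called, all lower in B6, beside 500 of 8251 genes (6.06%). None of them was called in the fit with the Gapdh covariate.

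**Figure D3:**
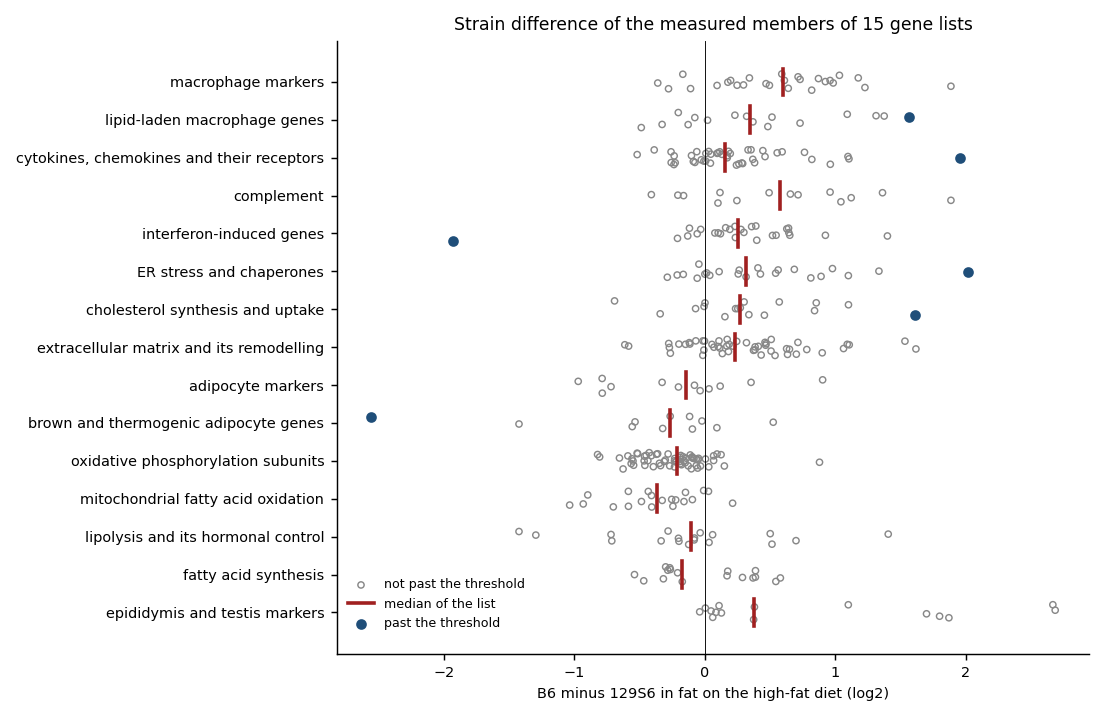
Strain difference in fat on the high-fat diet (log2, B6 minus 129S6) of the measured members of 15 gene lists, 1 circle a gene, with called genes filled and a red bar at the median. Medians lie above 0 for the macrophage (0.60) and complement (0.57) lists and below 0 for fatty acid oxidation (-0.37) and the thermogenic list (-0.27), and no list holds more than 1 called gene.

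Markers of the neighbouring organs were also measured in the pads. Of 15 measured epididymis and testis markers none was called (median 0.37), and their mean level was 6.15, 6.38, 6.51 and 5.48 in B6, against 5.39, 5.37 and 5.03 in 129S6, higher in every B6 array. Gpx5, a glutathione peroxidase secreted by the epididymis, was looked up after its values were seen and had 5.29, 10.59, 11.85 and 5.67 in B6 and 5.69, 5.87 and 5.48 in 129S6. It was high in B6 replicates 6 and 7 alone of the 7 arrays. The part of these organs in the called genes was not tested.

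The low-fat diet gave a second, separate pair of groups for the same contrast. On it 89 genes were called (1.08%), and 22 of them were called in the same direction on the high-fat diet. These are 61.1% of the high-fat calls and 24.7% of the low-fat calls, and all 36 high-fat calls had the same sign on the low-fat diet. Gdpd3 differed by -3.16, Hal by -2.39, Gas5 by 3.36, Snhg6 by 1.97 and Lbp by 1.48 on the low-fat diet, all called. Among the high-fat calls not called on the low-fat diet, Ucp1 differed there by -1.24 (adjusted p = 0.163), Ccl8 by 0.76 (adjusted p = 0.0808), Dhcr7 by 0.22 (adjusted p = 0.975) and Ctsk by 0.85 (adjusted p = 0.237). Being called on 1 diet does not show that the diets differ.

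The test of that difference called no gene, with 232 at an unadjusted p under 0.05. With the Gapdh covariate it called 4 (0.0485%), which were Retn (a change of 2.09, adjusted p = 0.0061), Hsd11b1 (1.83, adjusted p = 0.0061), Sox7 (1.29, adjusted p = 0.0296) and Tst (1.52, adjusted p = 0.0415). Lep had one of the smallest p values: its strain difference was -0.04 on the high-fat diet and 1.24 ± 0.19 on the low-fat diet (adjusted p = 0.0064), a change of -1.27 ± 0.27 (adjusted p = 0.722). Levels of Lep on the low-fat diet were 12.44, 12.43, 12.27 and 12.70 in B6 and 10.99, 11.13 and 11.54 in 129S6, all below the high-fat levels of their own strain. Without the covariate, the strain difference on the high-fat diet minus that on the low-fat diet was 1.20 for Ccl8, 1.70 for Tst, a mitochondrial sulfur transferase, 1.16 for Sox7, 1.06 for Vwf, -0.76 for Ifi202b, -0.93 for Polr2c and -2.05 for Mmp12, with adjusted p values from 0.722 to 0.9999. Ccl2 and Mmp12 had differences of 1.10 and 1.09 on the high-fat diet (neither called), against 3.10 and 3.14 on the low-fat diet (both called), and the change was not past the threshold for either.

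**Figure D4:**
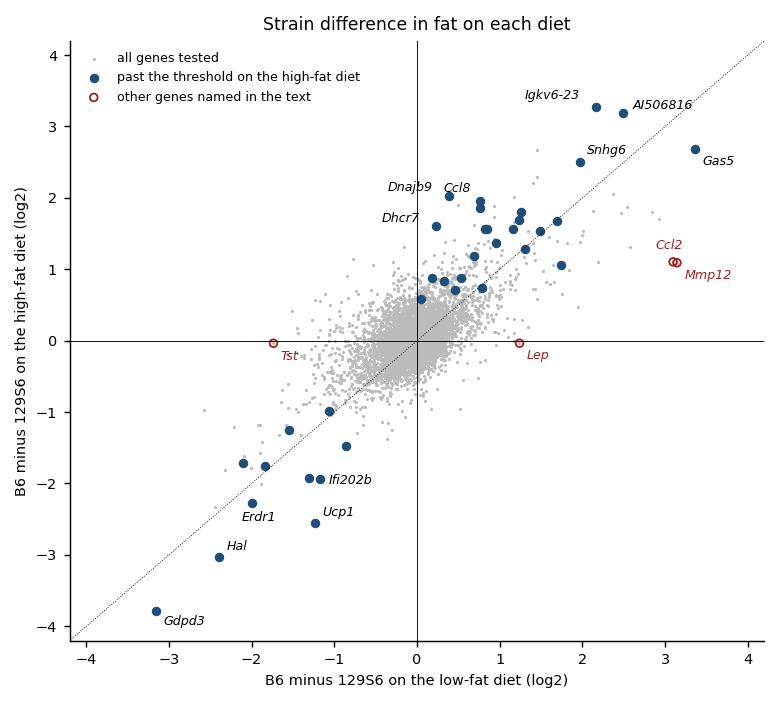
Strain difference (log2, B6 minus 129S6) of each of the 8251 genes on the high-fat diet (vertical) against the low-fat diet (horizontal), with the 36 genes called on the high-fat diet in blue and 4 other genes of the text in red. All 36 lie in the quadrants of equal sign; Lep lies at -0.04 on the high-fat and 1.24 on the low-fat diet.

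The same contrast was measured in liver and muscle of high-fat mice, with 4 arrays of each strain in each tissue. Liver had 149 called genes (1.81%) and muscle 3084 (37.4%). The SD of all values of an array was 1.59 to 1.70 in B6 muscle and 1.80 to 1.84 in 129S6 muscle. The Gapdh signals of these arrays were 1.19 to 3.36 and 1.27 to 4.43. The part of that difference in SD in the muscle counts was not tested. Of the 36 fat calls, 8 were also called in liver, 13 in muscle and 7 in both, in the same direction. Gas5 differed by 2.68 in fat, 2.84 in liver and 2.73 in muscle, and Gdpd3 by -3.78, -1.89 and -2.77. In the test of fat minus liver 77 genes were called (0.933%) and in that of fat minus muscle 2097 (25.4%), and 19 of the 36 passed both in the direction of their fat difference. Hal differed by -0.11 in liver and -0.22 in muscle (adjusted p of its difference from fat 1.02e-06 and 6.02e-07), Ccl8 by 0.04 and 0.31 (3.39e-06 and 8.45e-06), and Cck by -0.01 and 0.09 (1.47e-06 and 1.17e-06). Igfals differed by 1.28 in fat and by -1.14 in liver, the main source of its protein, and both were called (difference between the tissues 2.42, adjusted p = 1.02e-06). Ucp1 differed by -3.11 in muscle and -0.07 in liver, so that it passed the test against liver (adjusted p = 0.0121) and not that against muscle (adjusted p = 0.425).

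**Figure D5:**
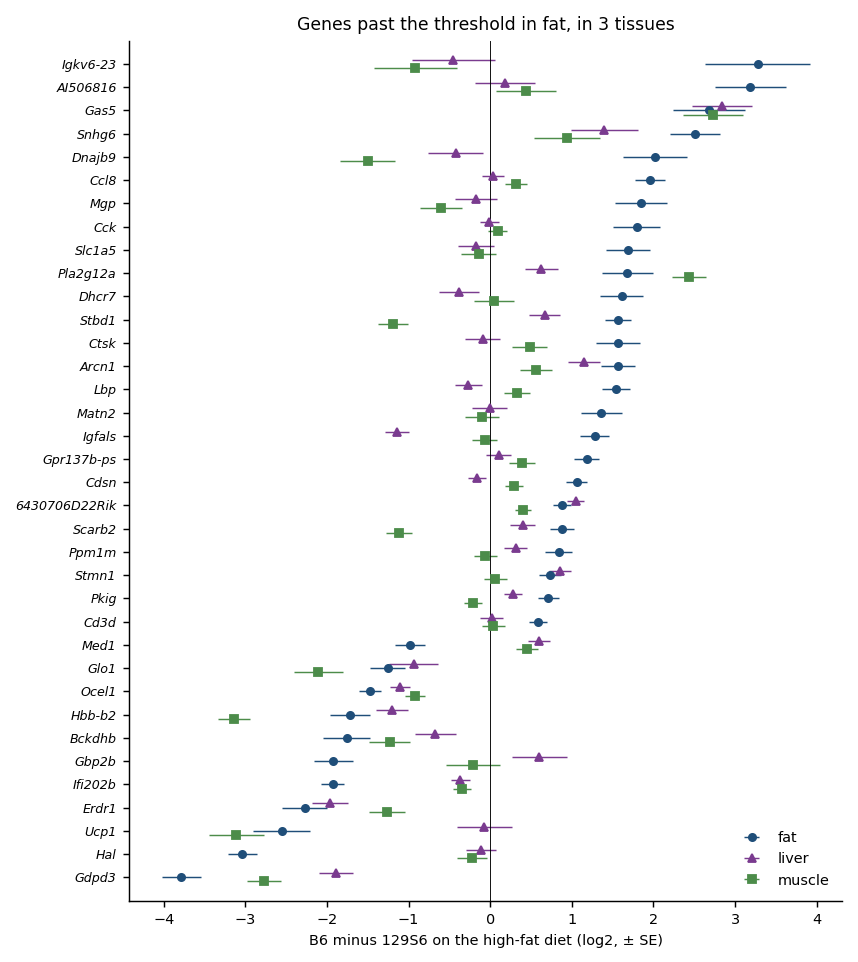
Strain difference on the high-fat diet (log2, B6 minus 129S6, bars ± SE) of the 36 genes called in fat, in fat (circles), liver (triangles) and muscle (squares), ordered by the difference in fat. Gas5 and Gdpd3 lie on the same side of 0 in all 3 tissues, and Hal, Ccl8 and Cck lie near 0 in liver and muscle.

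Positions in the RefSeq annotation of GRCm38.p6 placed a few called genes close together. Stbd1 and Scarb2, both higher in B6, lie on chromosome 5 with 97.4 kb between them, and Arcn1 and Cd3d, also both higher, lie 214 kb apart on chromosome 9. No other pair of called genes was within 1000 kb.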

How the data were processed

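The members and lists were chosen with earlier results of these data known. The deposited table holds log2 values that the authors made with RMA, per the submitters' processing notes, for 12488 probe sets and 45 Affymetrix arrays, with no version given in the sources used here. RMA brings the arrays to a common distribution, so a difference is relative to the other genes of the array. Of the probe sets, 66 were controls, 10833 had 1 gene symbol, 396 several and 1193 none; 10817 symbols were updated by Entrez ID and 16 were not. The brightest probe set over the fat arrays stood for each of 8251 genes.

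The 14 fat arrays were fitted in limma 3.58.1 (R 4.3.3) with 4 group means, and the 23 high-fat arrays of 3 tissues with 6, two-sided with Benjamini-Hochberg adjustment. On simulated data of the high-fat strain comparison, 200 of 8251 genes were changed. Of changes of 2 log2 units 99.0% were found, and of 1 unit 69.0%, with 8 false calls. The simulated noise was independent between arrays and had the same spread in every group. It held no arrays of high Gapdh signal and no array runs, so these shares do not carry over to the real arrays. No 2 fat arrays held identical values. Precision is limited by the number of arrays. Probe sequences were not used here, and whether strain variants lie under probes was not tested.

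Genes named were the called genes, the 15 largest each way first, up to 4 called members of each list, the 4 smallest p each way for the difference between diets, the 5 largest each way for fat against both other tissues, and a short list. Others are marked as looked up after their values were seen, or as called under the Gapdh covariate. For named genes, other probe sets above 4.5 on average that were not called the same way are given for called genes. Quality measures were compared with SciPy 1.17.1, figures drawn with matplotlib 3.10.9 in Python 3.11.15.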

Additional observations from a re-analysis of the deposited data

Results flagged for a closer look

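In 4 of the genes given above, B6 replicate 7 stood apart from the other 3 high-fat B6 fat arrays, with a gap to its nearest neighbour that was 0.843 of the group's range for Gas5, 0.898 for Gdpd3, 0.912 for Igfals and 0.880 for Slc2a4, above the limit of Dixon's test for 4 arrays. Its level was 10.13 for Gas5, against 8.40 in the nearest array, 6.70 against 6.33 for Gdpd3, 8.43 against 8.97 for Igfals and 6.23 against 7.54 for Slc2a4. Chance marks about 1 in 20 groups, and 58 genes were checked. Replicate 7 also had the highest Gapdh 3' minus 5' signal of the fat arrays, 6.03, and the part of that signal in these levels was not tested.

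The strain difference on the high-fat diet differed between fat and liver in 77 genes and between fat and muscle in 2097, by the test of the difference itself. The SD of the muscle arrays also differed between the strains, as given above, and its part in the 2097 was not tested. The strain difference in fat minus that in liver was 3.73 for Igkv6-23, 3.00 for AI506816, 2.44 for Dnajb9, 2.42 for Igfals and 2.03 for Mgp among genes higher in B6 fat. It was -2.93 for Hal, -2.52 for Gbp2b, -1.90 for Gdpd3, -1.57 for Med1 and -1.56 for Ifi202b among genes lower in B6 fat. All 10 were picked from the fat calls that passed the tests against liver and against muscle in the direction of their fat difference. Passing against muscle was thus a condition of the choice and not a further result. For Med1, a Mediator subunit, the difference was -0.98 in fat, 0.59 in liver and 0.45 in muscle, and each was called. The call of Med1 in fat held in 6 of the 14 fits that left out 1 fat array.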

How the results depend on the processing

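All 36 genes called on the high-fat diet kept their direction under every alternative run over all genes but 1, the use of probe sets specific to 1 gene. There AI506816 had -0.10 (-0.0987), opposite in sign but smaller than its SE given above. Single other probe sets of Erdr1, Arcn1, Dnajb9, Matn2 and Stmn1, given above, also had the opposite sign, none of them called. Of the 14 fits that left out 1 fat array, the call held in 3 for Stmn1, 4 for Cd3d and Matn2 and 5 for Pla2g12a. Whichever 1 fat array was left out, 19 of the 36 stayed called, and the number of calls ran from 23 (without B6 replicate 8) to 897 (without B6 replicate 7). The count was 161 with the Gapdh signal as a covariate, 157 with it and without B6 replicate 7, 128 without the 3 arrays of high Gapdh signal, 4 with the array run as a block and 9 in a fit of the 2 high-fat groups alone (3 higher and 6 lower in B6, against 25 and 11). These 2 alternatives without the arrays of high signal were chosen after seeing the data.

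In the same order, the low-fat count of 89 became 281, 484, 673, 15 and, in a fit of the low-fat groups alone, 743, and ran from 31 (without 129S6 low-fat replicate 9) to 273 (without high-fat B6 replicate 7). It was 54, 55 and 59 without low-fat B6 replicates 1, 3 and 5, and 40 and 38 without low-fat 129S6 replicates 10 and 11. The test of the difference between diets gave 4 genes with the covariate, 7 with it and without B6 replicate 7, 4 without the 3 arrays, and 0 to 6 when 1 array was left out, the 6 without B6 replicate 7.

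The fat minus liver count of 77 became 134, 237 and 209 under the first 3 of these, 49 with those tissues' groups alone and 39 without the dimmest genes, and ran from 54 to 714 (without fat B6 replicate 7) when 1 array was left out. The fat minus muscle count of 2097 became 1151 without the 3 arrays and 1074 with those tissues' groups alone, and ran from 1266 (without fat 129S6 replicate 13) to 2868 (without fat B6 replicate 7). The cause of these changes was not tested. The Gapdh signal difference of -1.83 ran from -3.66 to -0.88 when 1 array was left out. All probe sets, quantile normalization and the intensity trend moved no count by over 1.5 times.

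Within fat no paired analysis was possible because no 2 groups of fat share replicate numbers. Between tissues, replicates 6, 7 and 8 of high-fat B6 mice occur in both fat and muscle. Whether arrays of the same number came from the same mice is not stated. The test of fat minus muscle did not pair them, and the effect of pairing was not tested. With 4 and 3 pools, genes of small difference or dim signal, such as Cd3d, cannot be settled, and 1 run of array numbers per strain limits every high-fat fat difference.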

Other observations

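Hsd11b1, which regenerates active glucocorticoid inside fat cells, had 7.18, 7.38, 8.34 and 7.72 in B6 and 7.64, 7.59 and 6.85 in 129S6 on the high-fat diet, a strain difference of 0.29 ± 0.27 that was not called (adjusted p = 0.804, limma). On the low-fat diet it had 7.84, 7.88, 7.91 and 8.08 in B6 and 9.62, 9.06 and 8.90 in 129S6, a difference of -1.27 that was called (adjusted p = 0.0397). The change between the diets was 1.56 and was not past the threshold (adjusted p = 0.9999), and with the Gapdh covariate it was 1.83 and called (adjusted p = 0.0061).

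The complement list, whose members mark or shield cells from lysis, had 14 measured genes and no call in the full fit (median 0.57, 11 positive). Cd59a, which blocks the last step of lysis, was looked up after its values were seen and had 9.34, 8.98, 10.65 and 9.70 in B6 and 8.55, 8.01 and 8.36 in 129S6, or 1.36 ± 0.29 (adjusted p = 0.075). With the Gapdh covariate it was 1.59 and called (adjusted p = 0.0038), and on the low-fat diet it was 1.40 and called (adjusted p = 0.0355). Saa3, an acute phase protein of fat and macrophages, also looked up after its values were seen, had 8.77, 8.71, 8.98 and 9.01 in B6 and 8.17, 6.91 and 7.18 in 129S6, or 1.45 ± 0.34 (adjusted p = 0.117), and was called with the covariate (1.54, adjusted p = 0.0389).

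Of 40 gene lists, 7 held 1 called gene each and 33 held none.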
